A study of Homo sapiens with 6 samples.

Results

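The genes described here are 42 regulators and structural components of G2 phase and mitosis, among them cyclins, the spindle assembly checkpoint, the kinetochore, spindle proteins and condensin. They were chosen by name, and each of the 42 symbols matched 1 row among the 58233 rows with an Ensembl gene identifier. The RNA came from T24, an established line from a human transitional cell carcinoma of the urinary bladder. One group of 3 libraries came from T24 cells that stably expressed RhoC Q63E, a constitutively active mutant of the small GTPase RhoC, and the other group of 3 libraries from T24 cells that carried the vector (VEC). Cells of both groups had been transduced with lentivirus and selected with puromycin. The labels name neither the promoter that drives the transgene nor whether single clones were grown out, nor is it stated that each replicate was its own culture. The p-values therefore speak of the scatter among these 6 libraries, some or all of which may be technical.

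Entry into mitosis is driven by CDK1 bound to cyclin A or cyclin B, which CDC25 phosphatases activate and the kinases PLK1 and Aurora A reinforce. Kinetochores then attach each chromosome to spindle microtubules, and unattached kinetochores recruit checkpoint proteins that hold back the anaphase-promoting complex and its activator CDC20. Once all chromosomes are attached, the complex marks securin and cyclin B for degradation, and separase cuts the cohesin between sister chromatids. Most of these genes are transcribed in G2 and mitosis, through promoter elements bound by the MuvB complex with B-MYB and FOXM1 and by the CCAAT-binding factor NF-Y. In carcinoma cell lines their RNA follows the share of cycling cells, and in bulk RNA fewer cells in G2 or mitosis and less RNA per cell cannot be told apart.

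Values are as deposited and are taken as FPKM (fragments per kilobase of transcript, scaled to the library), a level per length, although no header or label names the unit, so levels of different genes can be set side by side. Differences are log2 differences of FPKM + 1, Q63E minus VEC, tested with limma over all 13346 genes with a mean of at least 1 FPKM, and a gene was called at a Benjamini-Hochberg adjusted p under 0.05. RHOC, the transduced gene, had 1770, 1726 and 1744 FPKM in the Q63E libraries, against 231.9, 217.6 and 232.0 FPKM in the VEC libraries, which fits the labels (log2 fold change 2.94, SE 0.0363, adjusted p = 3.12e-07 in limma). Library sums were 726929 to 741778 FPKM in Q63E and 746175 to 769026 FPKM in VEC, and read depth is unknown. The keratins KRT7, KRT8 and KRT18 stood at 1454, 985 and 788 FPKM in Q63E and at 1031, 581 and 515 FPKM in VEC, while E-cadherin (CDH1) and UPK3A, an uroplakin of the differentiated bladder surface, were listed at 0 in all 6 libraries. The 11 epithelial and urothelial markers summed to 3372 to 3477 FPKM in Q63E and 2129 to 2171 FPKM in VEC. Of the 6 that were tested 5 were higher (83.3%, against 11.3% of all genes), namely KRT7, KRT8, KRT18, KRT19 and PPARG. GATA3 went the other way, at 0.363 FPKM in Q63E and 1.79 FPKM in VEC. Its groups overlapped and it did not pass (log2 fold change -0.95, adjusted p = 0.121 in limma). The part of these markers in the differences below was not tested. Of the leukocyte markers, PTPRC and CD3E were listed at 0 in all 6 libraries, CD14 stood at 0.07 to 0.27 FPKM in Q63E and 0.28 to 0.49 FPKM in VEC, and LYZ at 0.03 to 0.07 FPKM in Q63E and 0 to 0.12 FPKM in VEC. The 4 endothelial markers summed to at most 0.24 FPKM in Q63E and 0.11 FPKM in VEC, and the 6 fibroblast markers to between 2.52 and 3.76 FPKM in Q63E and between 1.93 and 2.41 FPKM in VEC.

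All 42 genes passed the minimum of 1 FPKM. Their means over the 6 libraries ran from 12.3 FPKM for CDC25C, which sat at percentile 49.0 of the genes tested, to 437 FPKM for UBE2C at percentile 98.4, and the other 41 lay above the median gene of 12.8 FPKM. In Q63E 13 of the 42 were lower (31.0%), against 14.0% of all genes tested that were lower, and 1 was higher (2.38%), against 11.3% of all genes. All 5 members on chromosome 4 were among the 13, and off that chromosome 8 of 37 members were lower (21.6%). The median log2 fold change of the 42 was -0.06, against -0.0023 over all genes. All 3 Q63E libraries lay below all 3 VEC libraries for 16 genes (38.1%, against 22.8% of all genes) and above them for 3 (7.14%, against 21.1%). Either way, 43.9% of all genes had groups that did not overlap. No change reached 2-fold: the largest, of GTSE1, was a mean 35.8% lower in Q63E. Summed over the 42 genes, Q63E libraries held 3528, 3525 and 3655 FPKM and VEC libraries 3886, 3899 and 3854 FPKM, so every Q63E sum was below every VEC sum. The sums over all rows were also lower in every Q63E library. As a share of that library sum, the 42 genes held 0.475% to 0.495% in Q63E and 0.505% to 0.523% in VEC. The mean difference of the summed FPKM, not scaled to the library sum, was -310.6 FPKM. Of it the 5 members on chromosome 4 held -79.5 FPKM and the 9 called members elsewhere -187.9 FPKM. The 28 genes not called summed to 2365 ± 53.0 FPKM in Q63E and 2408 ± 27.0 FPKM in VEC (SD, n = 3 each), and there the groups overlapped. Genes were sorted into called and not called by these same values, so a small difference among the genes not called follows from the sorting. This split of the sum is a description and no test.

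**Figure D1:**
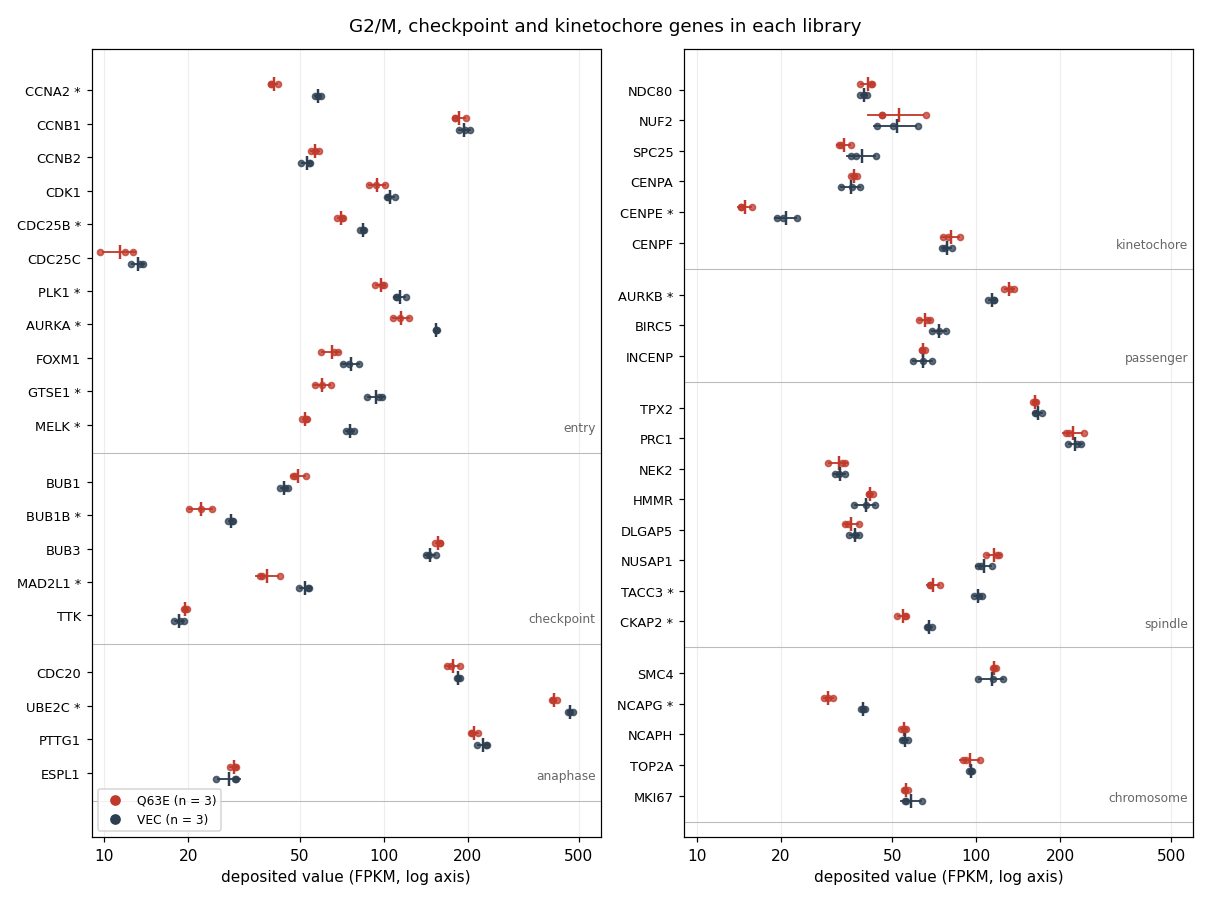
Deposited FPKM of the 42 genes in each library on a log axis, grouped by function (mitotic entry, checkpoint, anaphase, kinetochore, chromosomal passenger complex, spindle, chromosome structure). Points are libraries, with Q63E drawn above VEC for each gene, ticks and bars are the mean and SD of 3 libraries, and an asterisk marks an adjusted p under 0.05. The 14 marked genes show separate groups, as do some unmarked genes such as CDK1 and FOXM1. Genes such as TOP2A (89.3 to 103.5 FPKM in Q63E and 94.2 to 96.5 FPKM in VEC) overlap.

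The promoters of the genes that fell most and of 2 genes for comparison are shown because genes of this class share a motif pair in their promoters. The 4 largest falls were those of GTSE1, MELK, TACC3 and CCNA2. PLK1, a smaller fall, and CCNB2, which did not pass the threshold, carry both motifs. Sequences are RefSeq promoters on GRCh38.p14, 250 bases before and 50 bases from the gene's start, read on the gene's strand, and positions count from the start. Capitals mark the cell cycle homology region (CHR; searched on both strands as TTTGAA, as the variant TTCGAA and as the variant CTTGAA) and the CCAAT box (CCAAT on both strands, so ATTGG where reversed). GTSE1 lies at chr22:46296620-46296919 on the plus strand, MELK at chr9:36572645-36572944 on the plus strand, TACC3 at chr4:1720381-1720680 on the plus strand and CCNA2 at chr4:121823834-121824133 on the minus strand. PLK1 lies at chr16:23678639-23678938 and CCNB2 at chr15:59104896-59105195, both on the plus strand.
GTSE1: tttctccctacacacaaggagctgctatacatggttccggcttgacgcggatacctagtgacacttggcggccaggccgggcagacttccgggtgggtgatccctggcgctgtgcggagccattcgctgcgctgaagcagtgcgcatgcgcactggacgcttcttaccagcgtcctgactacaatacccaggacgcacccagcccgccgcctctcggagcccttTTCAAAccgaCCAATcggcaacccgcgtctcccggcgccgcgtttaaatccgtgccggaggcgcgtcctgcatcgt
MELK: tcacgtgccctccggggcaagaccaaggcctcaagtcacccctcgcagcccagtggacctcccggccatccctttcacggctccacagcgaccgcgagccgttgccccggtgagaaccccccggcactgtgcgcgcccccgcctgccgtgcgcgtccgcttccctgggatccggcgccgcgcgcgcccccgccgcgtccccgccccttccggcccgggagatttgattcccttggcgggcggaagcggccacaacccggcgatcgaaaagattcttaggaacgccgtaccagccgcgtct
TACC3: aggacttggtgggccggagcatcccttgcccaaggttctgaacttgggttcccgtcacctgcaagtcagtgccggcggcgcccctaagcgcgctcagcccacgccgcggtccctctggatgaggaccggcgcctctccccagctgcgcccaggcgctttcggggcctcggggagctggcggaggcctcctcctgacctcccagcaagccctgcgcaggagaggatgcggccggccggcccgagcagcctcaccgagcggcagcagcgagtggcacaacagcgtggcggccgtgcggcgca
CCNA2: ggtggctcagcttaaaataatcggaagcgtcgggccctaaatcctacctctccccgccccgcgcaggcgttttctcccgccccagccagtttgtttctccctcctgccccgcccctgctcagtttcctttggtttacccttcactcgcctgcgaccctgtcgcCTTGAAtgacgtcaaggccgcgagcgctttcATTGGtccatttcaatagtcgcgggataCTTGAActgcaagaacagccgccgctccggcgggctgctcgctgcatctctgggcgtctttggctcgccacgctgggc
PLK1: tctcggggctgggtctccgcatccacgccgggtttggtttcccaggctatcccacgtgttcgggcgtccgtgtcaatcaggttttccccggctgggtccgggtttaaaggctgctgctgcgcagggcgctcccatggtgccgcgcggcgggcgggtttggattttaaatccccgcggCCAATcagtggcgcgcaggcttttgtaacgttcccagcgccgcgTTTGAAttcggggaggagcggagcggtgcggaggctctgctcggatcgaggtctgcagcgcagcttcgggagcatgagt
CCNB2: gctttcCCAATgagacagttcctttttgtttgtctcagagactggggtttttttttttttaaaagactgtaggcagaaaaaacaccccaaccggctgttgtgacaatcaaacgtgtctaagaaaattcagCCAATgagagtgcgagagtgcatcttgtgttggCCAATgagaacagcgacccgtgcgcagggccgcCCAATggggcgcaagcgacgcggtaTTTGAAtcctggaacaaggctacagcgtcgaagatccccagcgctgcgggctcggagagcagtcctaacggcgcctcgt

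GTSE1 had 1 CHR word, reversed, at -26 to -21, next to 1 CCAAT box at -16 to -12. CCNA2 had CTTGAA at -87 and again at -28, with a reversed CCAAT box between them at -56. PLK1 and CCNB2 both had TTTGAA at -29 to -24, with 1 CCAAT box upstream in PLK1 and 4 in CCNB2. In the MELK and TACC3 windows neither word was found. The TACC3 window ends at 1720680, before the GENCODE 29 start of the gene at 1721490, so a promoter at that start was not searched. For some genes, among them PLK1, CKAP2 and NUF2, the window lies inside the GENCODE 29 gene and not at its start. A promoter was found in the table for 35 of the 42 genes, and where several starts were listed the most upstream was read. A CHR word stood in 24 of the 35 (68.6%), against 25.3% of 27305 promoters of the same length, and a CCAAT box in 24 (68.6%), against 35.7%. Both stood in 19 (54.3%), against 2730 of the 27305. Among the 11 promoters of genes lower in Q63E 6 held a CHR word and 4 a CCAAT box, and among the other 24 promoters 18 and 20 did. The genes that fell were thus spread over promoters with and without these letters, and a match is a word in the window, not a measured site.

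The regulators of mitotic entry held the most falls: 6 of 11 were lower in Q63E (54.5%, against 14.0% of all genes tested). These were CCNA2, CDC25B, PLK1, AURKA, GTSE1 and MELK, and the group median was -0.23 on the log2 scale. GTSE1, a microtubule-binding protein of G2 that restrains p53, lies on chromosome 22 (46296741 to 46330810 in GENCODE 29 on GRCh38). It had 60.1, 56.6 and 64.6 FPKM in the Q63E libraries, against 87.0, 99.1 and 96.1 FPKM in the VEC libraries. The highest Q63E library was thus well below the lowest VEC library (log2 fold change -0.63, SE 0.0685, adjusted p = 0.0014 in limma). MELK, a kinase of proliferating cells on chromosome 9 (36572862 to 36677683), had 53.1, 51.2 and 52.6 FPKM in the Q63E libraries, against 78.4, 75.8 and 73.3 FPKM in the VEC libraries. The groups were again apart, each with a narrow spread (-0.53, SE 0.0405, adjusted p = 0.000416 in limma).

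Among the cyclins, CCNA2 fell and the B cyclins did not pass the threshold. CCNA2 encodes the cyclin that partners CDK2 in S phase and CDK1 in G2, and lies on chromosome 4 (121816444 to 121823933). It had 39.5, 39.7 and 41.9 FPKM in the Q63E libraries, against 56.9, 59.9 and 58.0 FPKM in the VEC libraries, with no overlap (log2 fold change -0.52, SE 0.0431, adjusted p = 0.00055 in limma). CCNB1, the main mitotic cyclin, had 180.8, 180.8 and 197.9 FPKM in the Q63E libraries, against 203.2, 195.3 and 185.9 FPKM in the VEC libraries. Its groups overlapped, because Q63E replicate 3 was above VEC replicates 2 and 3 (-0.06, 95% interval -0.19 to 0.06). CCNB2, the Golgi-associated B cyclin, stood higher in all Q63E libraries with 54.9, 56.9 and 58.7 FPKM, against 53.9, 54.6 and 50.7 FPKM in the VEC libraries, and did not pass (0.10, adjusted p = 0.175 in limma). An annotated gene with no symbol, ENSG00000259732, overlaps CCNB2 on the same strand and stood at 0.257 FPKM in Q63E and 7.63 FPKM in VEC. Within a library, the CCNA2 level was 0.217 ± 0.00434 of the CCNB1 level in Q63E and 0.300 ± 0.0172 of it in VEC (SD, n = 3 each), while the ratio of CCNB2 to CCNB1 was 0.305 ± 0.00922 in Q63E and 0.272 ± 0.00712 in VEC.

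CDK1, the kinase these cyclins activate, had 89.0, 94.3 and 101.5 FPKM in the Q63E libraries, against 109.8, 104.1 and 103.1 FPKM in the VEC libraries. The groups did not overlap, but the gap between Q63E replicate 3 and VEC replicate 3 was small, and the difference did not pass (log2 fold change -0.15, adjusted p = 0.0916 in limma). Without Q63E replicate 3 it passed (-0.20, adjusted p = 0.0466 in limma). Of the CDC25 phosphatases that activate CDK1, CDC25B on chromosome 20 had 68.3, 71.8 and 71.1 FPKM in the Q63E libraries, against 85.4, 84.7 and 82.6 FPKM in the VEC libraries. Its spread was small within both groups and it fell (-0.26, SE 0.037, adjusted p = 0.00407 in limma). CDC25C, the least abundant of the 42 genes, had 9.67, 11.9 and 12.6 FPKM in the Q63E libraries, against 13.4, 13.8 and 12.5 FPKM in the VEC libraries. These groups overlapped through Q63E replicate 3 (-0.21, 95% interval -0.45 to 0.04).

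Both kinases of this group that reinforce CDK1 activation, AURKA and PLK1, fell. WEE1 and PKMYT1, which inhibit CDK1 and belong to another list, did not pass (log2 fold changes 0.20 and -0.10, adjusted p = 0.118 and 0.203 in limma). AURKA, Aurora A of the centrosome and spindle poles, lies on chromosome 20 (56369389 to 56392337). It had 114.5, 108.3 and 123.5 FPKM in the Q63E libraries, against 155.6, 153.8 and 153.6 FPKM in the VEC libraries. The VEC values were nearly equal and all Q63E values lay far below them (log2 fold change -0.42, SE 0.0514, adjusted p = 0.00226 in limma). PLK1, Polo-like kinase, on chromosome 16 had 99.1, 93.4 and 100.2 FPKM in the Q63E libraries, against 111.8, 119.9 and 111.0 FPKM in the VEC libraries. The gap between the groups was wider than the range within either (-0.23, SE 0.0471, adjusted p = 0.016 in limma). FOXM1, the transcription factor that activates late cell cycle genes, had 66.7, 59.9 and 68.8 FPKM in the Q63E libraries, against 75.4, 81.9 and 71.7 FPKM in the VEC libraries, and did not pass in spite of groups that did not overlap (-0.23, adjusted p = 0.0612 in limma). RHNO1, on the opposite strand of FOXM1, stood at 40.8 FPKM in Q63E and 43.9 FPKM in VEC.

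**Figure D2:**
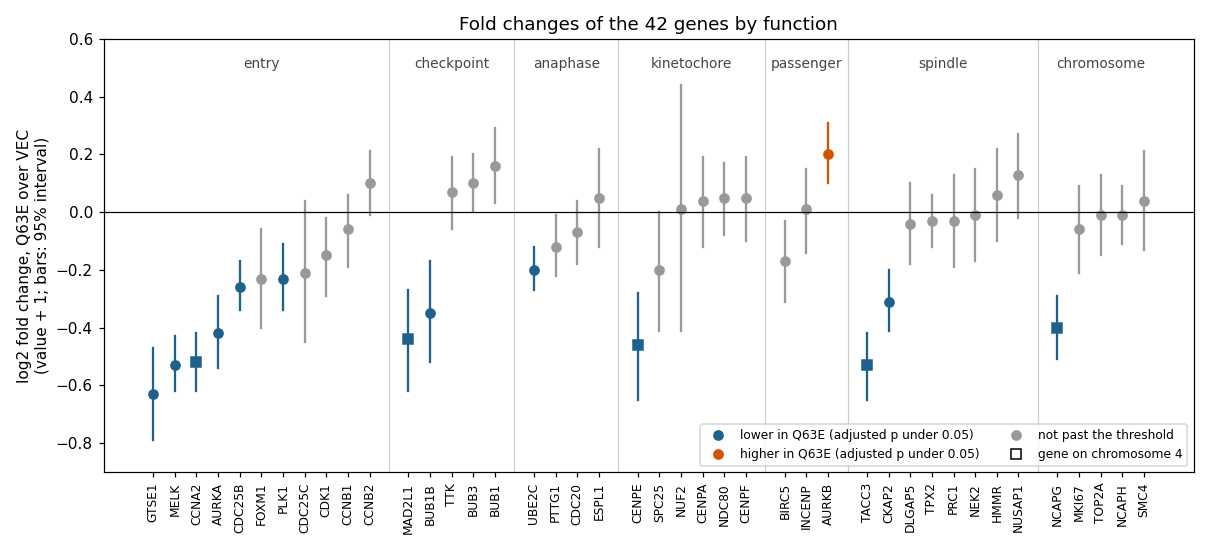
Log2 fold change of each gene, Q63E over VEC on FPKM + 1, with its 95% interval from limma, ordered by function and then by size. Squares are genes on chromosome 4, and colour marks the adjusted p under 0.05. The entry regulators hold 6 of the 13 falls, AURKB is the single rise, and the widest interval, of NUF2, runs from -0.41 to 0.44.

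In the spindle assembly checkpoint 2 of 5 genes fell (40.0%, against 14.0% of all genes tested), MAD2L1 and BUB1B. MAD2L1, the MAD2 protein that binds CDC20 as part of the checkpoint inhibitor, lies on chromosome 4 (120055608 to 120067074). It had 36.8, 36.0 and 42.4 FPKM in the Q63E libraries, against 54.1, 49.8 and 53.6 FPKM in the VEC libraries, with no overlap (log2 fold change -0.44, SE 0.0725, adjusted p = 0.00637 in limma). BUB1B, which encodes BUBR1, another part of that inhibitor, lies on chromosome 15 and had 20.1, 24.3 and 22.2 FPKM in the Q63E libraries, against 28.8, 28.6 and 27.8 FPKM in the VEC libraries. The Q63E libraries were lower and more spread (-0.35, SE 0.0726, adjusted p = 0.0159 in limma). The BUB1B call did not hold without Q63E replicate 3 (adjusted p = 0.0511 in limma), VEC replicate 1 (0.0524) or VEC replicate 2 (0.0507). The row of the readthrough gene BUB1B-PAK6 on the same strand stood at 1.29 FPKM in Q63E and 0.867 FPKM in VEC, so reads can be shared.

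None of the 3 other checkpoint genes passed. BUB1, the kinase that marks centromeres and recruits BUBR1, had 48.1, 47.5 and 52.9 FPKM in the Q63E libraries, against 42.7, 44.5 and 45.3 FPKM in the VEC libraries, higher in all 3 but not past the threshold (log2 fold change 0.16, adjusted p = 0.0768 in limma). BUB3, their shared adaptor, averaged 157 ± 3.80 FPKM in Q63E and 147 ± 6.26 FPKM in VEC, and TTK, the kinase MPS1 that starts the signal, averaged 19.5 ± 0.261 FPKM in Q63E and 18.6 ± 0.747 FPKM in VEC (SD, n = 3 each). Both pairs of groups overlapped. The ratio of MAD2L1 to BUB1 within a library was 0.774 ± 0.0237 in Q63E and 1.19 ± 0.0743 in VEC, and that of BUB1B to BUB1 0.449 ± 0.053 in Q63E and 0.644 ± 0.0306 in VEC (SD, n = 3 each). The libraries of the groups did not overlap in either ratio.

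Of the 4 genes that carry cells through anaphase 1 fell, UBE2C, against 14.0% of all genes tested that were lower. CDC20, PTTG1 and ESPL1 did not pass. UBE2C is the ubiquitin-conjugating enzyme of the anaphase-promoting complex and the most abundant of the 42 genes, on chromosome 20. It had 400.0, 416.7 and 403.6 FPKM in the Q63E libraries, against 465.6, 458.5 and 475.0 FPKM in the VEC libraries. The groups were clearly apart although the change was small (log2 fold change -0.20, SE 0.0318, adjusted p = 0.00619 in limma). CDC20, the activator that the checkpoint holds back, had 174.7, 168.2 and 187.4 FPKM in the Q63E libraries, against 182.9, 185.2 and 187.6 FPKM in the VEC libraries. There Q63E replicate 3 lay within the VEC range (-0.07, 95% interval -0.18 to 0.04). PTTG1, securin, averaged 210 ± 6.87 FPKM in Q63E and 228 ± 10.2 FPKM in VEC (SD, n = 3 each). ESPL1, separase, had 29.6, 28.2 and 29.3 FPKM in the Q63E libraries, against 29.4, 29.5 and 25.2 FPKM in the VEC libraries. The groups overlapped for both.

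At the kinetochore 1 of 6 genes fell, the motor gene CENPE, a share of 16.7% that was near the 14.0% of all genes tested. CENPE moves chromosomes to the spindle equator and lies on chromosome 4 (103105806 to 103198409). It had 14.3, 14.4 and 15.7 FPKM in the Q63E libraries, against 19.4, 22.8 and 20.3 FPKM in the VEC libraries, with no overlap (log2 fold change -0.46, SE 0.0764, adjusted p = 0.00673 in limma). CENPF, a large outer kinetochore protein, had 87.5, 76.3 and 79.3 FPKM in the Q63E libraries, against 77.6, 81.8 and 75.7 FPKM in the VEC libraries, mixed across groups (0.05, 95% interval -0.10 to 0.19). CENPA, the centromeric histone, had 36.4, 37.5 and 35.8 FPKM in the Q63E libraries, against 35.8, 38.4 and 32.8 FPKM in the VEC libraries, all inside the VEC range (0.04, 95% interval -0.12 to 0.19).

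The NDC80 complex binds the microtubule end. NDC80 had 38.5, 42.2 and 42.1 FPKM in the Q63E libraries, against 39.8, 40.6 and 38.5 FPKM in the VEC libraries. The values were mixed across groups (log2 fold change 0.05, 95% interval -0.08 to 0.17). NUF2, its partner, was the least even of the 42 genes, with 45.9, 46.1 and 66.3 FPKM in the Q63E libraries and 61.7, 44.0 and 50.2 FPKM in the VEC libraries. A single library in each group, Q63E replicate 3 and VEC replicate 1, stood high, and the interval ran from -0.41 to 0.44, so these libraries bound its change poorly. NUF2 shares its locus with RGS5 on the opposite strand, whose row stood at 2.40 FPKM in Q63E and 0.617 FPKM in VEC. SPC25, a subunit of the same complex that faces the chromosome, averaged 33.6 ± 1.81 FPKM in Q63E and 38.9 ± 4.41 FPKM in VEC (SD, n = 3 each; -0.20, adjusted p = 0.135 in limma). NOSTRIN overlaps SPC25 on the opposite strand and its row stood at 3.19 FPKM in Q63E and 15.5 FPKM in VEC, so without strand the SPC25 values may hold reads of both.

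The chromosomal passenger complex held the single rise (33.3% of its 3 genes, against 11.3% of all genes tested). AURKB, the Aurora B kinase that corrects faulty attachments, lies on chromosome 17 (8204733 to 8210600). It had 136.4, 126.1 and 132.3 FPKM in the Q63E libraries, against 116.0, 110.5 and 115.6 FPKM in the VEC libraries, with no overlap (log2 fold change 0.20, SE 0.0423, adjusted p = 0.0156 in limma). The call did not hold without Q63E replicate 1 (adjusted p = 0.0509 in limma) or Q63E replicate 3 (0.0518). INCENP, the scaffold of the complex, averaged 64.6 ± 0.96 FPKM in Q63E and 64.5 ± 5.03 FPKM in VEC, and BIRC5, survivin, 65.7 ± 3.19 FPKM in Q63E and 73.8 ± 4.34 FPKM in VEC (SD, n = 3 each). BIRC5 was lower in all 3 Q63E libraries without passing (-0.17, adjusted p = 0.0852 in limma). The 2 Aurora kinases thus differed in opposite directions: the ratio of AURKA to AURKB was 0.839, 0.859 and 0.934 in the Q63E libraries and 1.34, 1.39 and 1.33 in the VEC libraries. If the values are FPKM, as taken here, AURKA stood above AURKB in each VEC library and below it in each Q63E library.

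**Figure D3:**
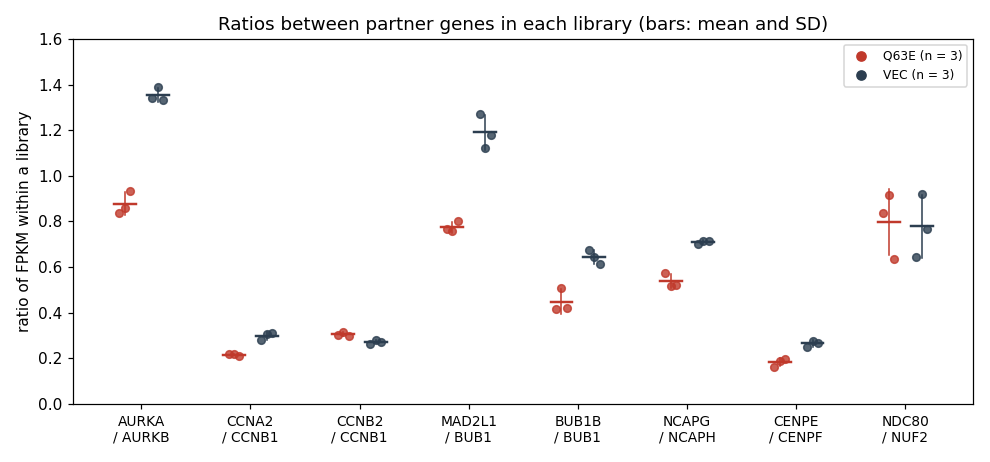
Ratio of FPKM between partner genes within each library, with points for libraries and bars for the mean and SD of 3 libraries. The pairs were chosen with the values known and carry no test. CCNA2, MAD2L1, NCAPG and CENPE lie on chromosome 4, where 45.8% of genes that are no members were lower, and their partners lie elsewhere. AURKA over AURKB lies between 0.839 and 0.934 in Q63E and between 1.33 and 1.39 in VEC, while NDC80 over NUF2 overlaps.

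Among 8 spindle genes 2 fell, TACC3 and CKAP2, against 14.0% of all genes tested that were lower. TACC3, which Aurora A recruits to spindle microtubules, lies on chromosome 4 (1721490 to 1745176), and the lowering along that chromosome is described below. It had 68.4, 68.1 and 74.0 FPKM in the Q63E libraries, against 98.3, 104.7 and 102.5 FPKM in the VEC libraries, far apart (log2 fold change -0.53, SE 0.0477, adjusted p = 0.0007 in limma). CKAP2, a microtubule stabiliser on chromosome 13, had 55.6, 52.0 and 56.1 FPKM in the Q63E libraries, against 66.5, 67.4 and 69.3 FPKM in the VEC libraries. Its groups did not overlap either (-0.31, SE 0.0443, adjusted p = 0.00397 in limma). TPX2, the activator of Aurora A at the spindle, stayed close, with 159.7, 162.8 and 164.0 FPKM in the Q63E libraries, against 163.4, 172.3 and 161.8 FPKM in the VEC libraries. The groups overlapped and the interval was narrow (-0.03, 95% interval -0.12 to 0.06). PRC1, NEK2, HMMR, DLGAP5 and NUSAP1 overlapped between groups as well, with log2 fold changes between -0.04 for DLGAP5 and 0.13 for NUSAP1.

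In condensin and chromosome structure 1 of 5 genes fell, against 14.0% of all genes tested that were lower. NCAPG, a regulatory subunit of condensin I, lies on chromosome 4 (17810902 to 17844862). It had 30.7, 28.5 and 29.4 FPKM in the Q63E libraries, against 40.0, 39.4 and 38.8 FPKM in the VEC libraries, with a narrow spread in both groups (log2 fold change -0.40, SE 0.0452, adjusted p = 0.00156 in limma). NCAPH, its partner in the same complex, averaged 55.1 ± 1.22 FPKM in Q63E and 55.4 ± 1.52 FPKM in VEC (SD, n = 3 each), and the ratio of NCAPG to NCAPH was 0.537 ± 0.0302 in Q63E and 0.710 ± 0.00898 in VEC. NCAPH lies on chromosome 2, and the lowering along chromosome 4 is described below. SMC4, the ATPase core of both condensins, had 115.2, 115.8 and 117.7 FPKM in the Q63E libraries, against 101.9, 124.3 and 114.9 FPKM in the VEC libraries, inside the VEC range (0.04, 95% interval -0.13 to 0.21).

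The usual markers of proliferation did not pass. MKI67, which encodes the Ki-67 antigen, had 55.5, 56.8 and 55.3 FPKM in the Q63E libraries, against 55.9, 64.2 and 55.5 FPKM in the VEC libraries. All but VEC replicate 2 were nearly equal (log2 fold change -0.06, 95% interval -0.21 to 0.09). TOP2A, topoisomerase II of mitotic chromosomes, had 92.2, 89.3 and 103.5 FPKM in the Q63E libraries, against 96.5, 94.2 and 96.1 FPKM in the VEC libraries. The Q63E values lay on both sides of the VEC values (-0.01, 95% interval -0.15 to 0.13).

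All 5 members on chromosome 4 fell (TACC3, NCAPG, CENPE, MAD2L1 and CCNA2), although they belong to 5 functional groups, and 3 of 4 on chromosome 20 (CDC25B, AURKA and UBE2C). On the other chromosomes 5 of 33 fell. Among tested genes that are no members, 18.2% were lower on chromosome 20 and 12.8% on chromosomes other than 4 and 20. The share of members that fell on those other chromosomes was thus near that of the genes around them. Over chromosome 4 as a whole, 201 of 439 tested genes that are no members were lower in Q63E (45.8%), and their median log2 fold change was -0.3197. To set each member beside its surroundings, the median log2 fold change of up to 25 tested genes on each side was taken, with members left out. It was subtracted as a fixed value. The p-values after subtraction therefore leave out the uncertainty of the median and the spread among neighbours, and are no test of a gene against its neighbours. For the 5 chromosome 4 genes this neighbourhood median was between -0.45 and -0.39, and between 40 and 46 of their 47 to 50 neighbours lay below 0. With the median subtracted, their log2 fold changes were -0.11 for CCNA2, -0.08 for TACC3, -0.07 for CENPE, -0.03 for MAD2L1 and 0.02 for NCAPG, and none of the 5 passed (lowest adjusted p = 0.136 in limma, with 1 of the 5 at an unadjusted p under 0.05). EXOSC9, which overlaps CCNA2 on the opposite strand, stood at 25.4 FPKM in Q63E and 40.7 FPKM in VEC.

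Other falls were larger than the neighbourhood median. AURKA kept a log2 fold change of -0.35 after subtraction (adjusted p = 0.00611 in limma), against a neighbourhood median of -0.07. BUB1B kept -0.37 (adjusted p = 0.0171), PLK1 -0.26 (0.013), CKAP2 -0.27 (0.00968) and UBE2C -0.20 (0.0087), with neighbourhood medians between -0.04 and 0.04. GTSE1 and MELK lay among lowered genes, with medians of -0.26 and -0.30, and kept -0.37 (adjusted p = 0.014 in limma) and -0.23 (0.0119). CDC25B did not keep its call (-0.12, adjusted p = 0.0646 in limma), nor did AURKB (0.12, adjusted p = 0.103). Where neighbourhood medians were 0.04 to 0.14, CCNB1 (-0.20, adjusted p = 0.0413), CDK1 (-0.25, 0.0251), FOXM1 (-0.26, 0.0466) and PTTG1 (-0.17, 0.0416) passed after subtraction. The neighbours of FOXM1 split into 18 below and 22 above 0, so its call after subtraction rests on a median near 0. The count after subtraction was 11 of 42 lower, against 9.83% of all genes, and 0 higher in limma (2 at an unadjusted p under 0.05), against 9.06%. The 11 comprised 7 of the 11 entry regulators, 1 of 5 checkpoint, 2 of 4 anaphase and 1 of 8 spindle genes, and none of the kinetochore, passenger and chromosome structure genes.

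**Figure D4:**
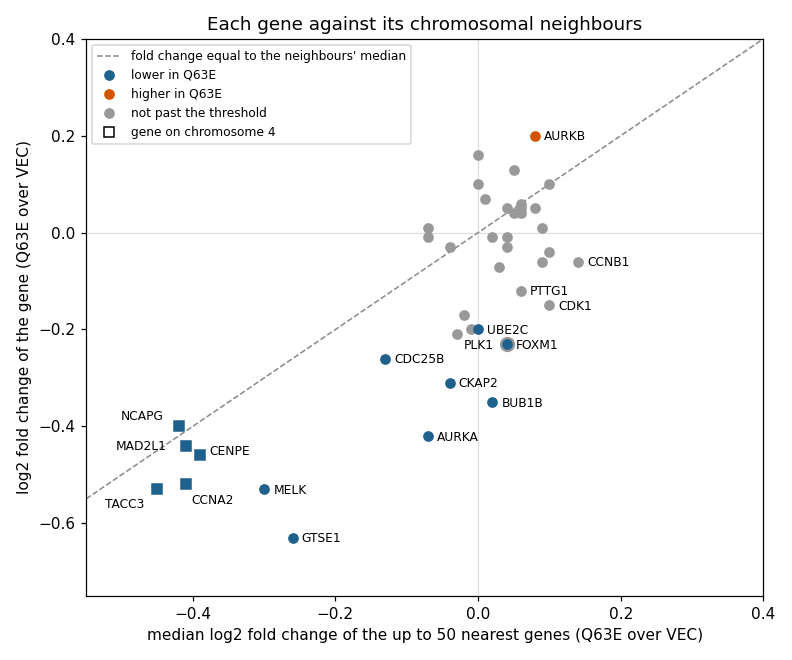
Log2 fold change of each of the 42 genes (vertical axis) against the median of its up to 50 nearest tested genes (horizontal axis), Q63E over VEC. The 5 squares of chromosome 4 sit near the dashed line of equality at neighbourhood medians of -0.45 to -0.39, while AURKA, BUB1B, CKAP2 and PLK1 lie below the line at medians between -0.07 and 0.04. PLK1 and FOXM1 have the same rounded position.

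A further 114 genes of the same machinery, in 7 lists, were all tested. In Q63E 20 were lower (17.5%, against 14.0% of all genes) and 7 higher (6.14%, against 11.3%), with a median log2 fold change of -0.02, so the lower share was near that of all genes. Among the 7 lists the share lower ran from 0% for cytokinesis genes to 27.6% for kinetochore and centromere genes, and the share higher from 0% to 28.6% for cytokinesis genes, in lists of 9 to 29 genes. With libraries rescaled to equal sums the split was 16 lower and 12 higher. Of 29 other kinetochore and centromere genes 8 were lower, with the largest fall in CENPM, a subunit of the inner kinetochore, at 39.7 FPKM in Q63E and 68.8 FPKM in VEC (-0.78, adjusted p = 0.000775 in limma). CENPM lies on chromosome 22 in a neighbourhood with a median of -0.43, and kept -0.35 after subtraction (adjusted p = 0.0195). Among 17 subunits and regulators of the anaphase-promoting complex 4 were lower (23.5%), ANAPC4, UBE2S, ANAPC13 and ANAPC2, and 1 was higher (5.88%), ANAPC16. After subtraction ANAPC13 kept its call (adjusted p = 0.00551 in limma), while ANAPC4, ANAPC2 and ANAPC16 did not (0.151, 0.11 and 0.163). For ANAPC16, removal of any 1 of 5 libraries also ended the call. UBE2S, the enzyme that extends the ubiquitin chains started by UBE2C, had 61.3, 61.5 and 66.2 FPKM in the Q63E libraries, against 84.3, 88.6 and 83.3 FPKM in the VEC libraries (-0.43, adjusted p = 0.00137 in limma) and kept -0.38 after subtraction (adjusted p = 0.00331).

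Among 9 other entry kinases and phosphatases 2 were lower (22.2%, against 14.0% of all genes), MASTL (Greatwall) and CKS2, a small CDK-binding protein. Their log2 fold changes were -0.57 and -0.40 (adjusted p = 0.0012 and 0.00486 in limma). Their neighbourhood medians were -0.48 and -0.30, and neither was past the threshold after subtraction (adjusted p = 0.286 and 0.323 in limma). In the list of 15 DREAM, MuvB and B-MYB genes 3 were lower (TFDP1, LIN54 and MYBL2) and 1 higher (RBL2). TFDP1, the partner subunit of E2F factors, stood at 92.3 FPKM in Q63E and 121.9 FPKM in VEC (-0.40, adjusted p = 0.00921 in limma), and RBL2, which encodes the p130 repressor of that complex, had 19.3, 19.4 and 19.9 FPKM in Q63E libraries, against 14.2, 15.1 and 15.7 FPKM in VEC libraries (0.36, adjusted p = 0.00569). Of 12 other checkpoint genes 2 were lower (MAD1L1 and ZW10) and 1 higher (SGO1), and of 18 cohesin and other condensin genes 1 was lower (PDS5A). The shares lower were 16.7% and 5.56%, near or below that of all genes. Of 14 cytokinesis genes 4 were higher (MYH9, SEPTIN9, CEP55 and DIAPH3) and 0 lower in limma (7 higher and 1 lower at an unadjusted p under 0.05). CEP55, which recruits the final cutting machinery to the midbody, stood at 148 FPKM in Q63E and 126 FPKM in VEC (0.23, adjusted p = 0.00478), and its call held with any library left out. MYH9, the heavy chain of non-muscle myosin IIA, stood at 508.5 FPKM in Q63E and 430.0 FPKM in VEC (0.24, adjusted p = 0.0141 in limma), and its call did not hold without Q63E replicate 1 or VEC replicate 3 (highest adjusted p = 0.0552). Of the 27 genes called in these lists 14 kept their call with any 1 library left out.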

How the data were processed

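RNA of 6 libraries was sequenced, 3 of Q63E and 3 of VEC cells. Each library has 1 table, deposited by the authors, with 58882 rows, of which 58233 carry an Ensembl identifier, and the deposited values are taken as FPKM: neither headers nor labels name the unit, the sums differ between libraries, and values have 2 decimals. Per the submitters' processing notes the tools include Bowtie2 and HISAT2 2.1.0 and the build is GRCh38.p10; the counting program is not given in the sources used here. Loci without a gene name (649, left out of the test) held 0.274% to 0.511% of a library. Whole reads were not recovered (at best 26.4% to 31.1% of low values within 0.1 of a whole number, against 20% with no steps), so depth is unknown and no counting interval is given.

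Symbols came from a gene table (57392 identifiers matched) and positions from GENCODE 29 (57895). FPKM were used as log2(FPKM + 1), which understates changes of low genes, in limma 3.58.1 (R 4.3.3; lmFit, eBayes with trend), two-sided, with 13346 genes of mean FPKM of at least 1 and a threshold of 0.05. The fit was also tested on simulated data with known changes. The neighbourhood median covers up to 25 tested genes on each side and was subtracted as a fixed value, without its own error. No strand is stated, so overlapping genes can share reads. Of the pseudogenes named after members, UBE2CP5 was highest, with at most 4.29 FPKM. Members called, and the best-known regulators of each group, are given per library, and other lists are named by their called genes, with values for those of large change and for CEP55, chosen after its values were seen. Members, lists, tests and alternatives were chosen with earlier results of these data known.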

Additional observations from a re-analysis of the deposited data

How the results depend on the processing

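Each result was recomputed under 13 alternatives. The count of lower members stayed at 11 to 13 throughout, but not always with the same genes. With the neighbourhood median subtracted, CCNA2, CDC25B, MAD2L1, CENPE, TACC3 and NCAPG dropped out and CCNB1, CDK1, FOXM1 and PTTG1 came in. RHOC stayed called under all alternatives (2.64 to 2.98). Of the 14 called members, 5 passed under all 13 (AURKA, GTSE1, MELK, UBE2C and CKAP2). With the replicate number as a block, 2208 genes were called, 942 of them higher, PLK1 did not pass (adjusted p = 0.0685 in limma), and the 7 other lists had 4 higher and 11 lower. Same-numbered libraries did not deviate together over all genes (correlations -0.042, -0.009 and -0.025). What the numbers stand for is not stated, and such correlations cannot exclude that libraries were handled in numbered pairs. The other lists had 4 higher with no filter on low values, 12 with libraries rescaled to equal sums, 4 without the limma trend, and 10 lower with the neighbourhood median subtracted, where 0 members were higher.

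With 1 library left out, 2314 to 2621 genes were called (992 to 1138 higher, 1314 to 1483 lower), 0 to 1 members were higher and 12 to 13 lower, and the other lists had 2 to 9 higher and 12 to 16 lower. Members that were not called, with values near 0, changed sign, as did 1 called member, NCAPG, which was at -0.40 and moved to 0.02 with the neighbourhood median subtracted. With libraries rescaled, TPX2 was at 0.0048, PRC1 0.01, NEK2 0.02, NCAPH 0.03 and TOP2A 0.03, and with equal medians NCAPH at 0.0001. With the neighbourhood median subtracted, ESPL1 was at -0.01, NDC80 -0.04, CENPA -0.03, INCENP -0.08, TPX2 0.01, NEK2 0.05 and SMC4 -0.01. With 1 library left out the range was -0.01 to 0.09 for CENPF, -0.05 to 0.05 for NEK2, -0.03 to 0.01 for NCAPH, -0.07 to 0.03 for TOP2A, -0.05 to 0.06 for INCENP and -0.16 to 0.14 for NUF2. It was -0.09 to 0.01 for PRC1, -0.04 to 0.10 for SMC4, -0.0026 to 0.12 for HMMR, -0.10 to 0.0039 for MKI67, -0.02 to 0.09 for ESPL1 and -0.02 to 0.09 for CENPA. Causes were not tested.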
